A study of Mus musculus with 9 samples.

Results

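The genes described here are the assembly chaperones of the proteasome and its alternative activators, *Psmg1*, *Psmg2*, *Psmg3*, *Psmg4*, *Pomp*, *Psmd5*, *Psmd9*, *Psmd10*, *Psme3* and *Psme4*. They were taken by symbol from the tables of group means, and 9 of the 10 were found in all 3 tables, 7 chaperones and 2 activators, among 14443 genes that the 3 tables have in common. *Psmg3* was not analysed here. The cells were neonatal rat ventricular cardiomyocytes (NRVMs), primary heart muscle cells from Sprague Dawley pups aged 1 or 2 days, plated for 48 h, infected with adenovirus at a multiplicity of infection (MOI) of 50 and collected 48 h later. All 3 groups carried a virus. The control virus encoded LacZ, a bacterial enzyme, and the others encoded mouse Nrf1 or mouse Nrf2, all from a CMV promoter that also acts in cells other than cardiomyocytes, with a red fluorescent reporter. Each group had 3 libraries of stranded messenger RNA, and no source says whether these came from separate preparations of cells, so every p-value below measures the spread between libraries of 3 cultures that may share their cells. The labels give mouse as the organism, but the cell type, strain and genome build they name are those of the rat.

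The proteasome degrades most short-lived and damaged proteins. Its barrel-shaped core stacks alpha rings and beta rings, and a regulatory particle, made of a base with a ring of ATPases and a lid, recognises and unfolds ubiquitinated substrates at the end of the barrel. The complex does not form on its own. The products of *Psmg1* and *Psmg2* (PAC1 and PAC2) and those of *Psmg3* and *Psmg4* (PAC3 and PAC4) work as heterodimers on which the alpha ring is built. *Pomp* encodes the maturation protein that guides the beta ring and the joining of half-proteasomes and is then degraded by the finished particle, and *Psmd5*, *Psmd9* and *Psmd10* encode chaperones that each hold a part of the ATPase ring until the base is complete. *Psme3* (PA28 gamma) and *Psme4* (PA200) encode caps found mainly in the nucleus that open the core without ubiquitin. Nrf1 and Nrf2 are related cap'n'collar transcription factors that bind antioxidant response elements with small Maf proteins, and Nrf1 is known for inducing proteasome genes when proteasome activity falls short.

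Because both factors act through the antioxidant response element, the promoters of the genes were read for the core of that element, TGACNNNGC, on both strands. No rat sequence was at hand, and the windows are RefSeq's mouse windows (GRCm38.p6) from 250 bases before to 50 bases after the start of transcription. Of the 10 genes 9 had a window, and the motif lay in 2 of these 9, *Psmd9* and *Psme4*. It lay in 12.4% of all 32851 windows and in 6 of the 27 subunit genes with a window. The gene without a window was *Psmg2*, so these 9 include *Psmg3* and are not the 9 genes with values. The stretches below run from 150 bases before the start to its first 9 bases, with the motif in capitals, and *Psmd5* is shown beside them as the member that was raised by nearly the same amount in both overexpression groups and has no match in its window.
Psmd9 (chr5:123228040-123228198, plus strand): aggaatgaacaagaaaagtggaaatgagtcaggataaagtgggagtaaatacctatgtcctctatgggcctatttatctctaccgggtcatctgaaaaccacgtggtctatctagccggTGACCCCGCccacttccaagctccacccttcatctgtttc
Psme4 (chr11:30771625-30771783, plus strand): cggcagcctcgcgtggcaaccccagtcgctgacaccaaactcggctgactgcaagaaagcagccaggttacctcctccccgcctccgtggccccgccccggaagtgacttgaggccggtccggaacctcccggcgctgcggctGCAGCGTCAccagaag
Psmd5 (chr2:34870954-34871112, minus strand): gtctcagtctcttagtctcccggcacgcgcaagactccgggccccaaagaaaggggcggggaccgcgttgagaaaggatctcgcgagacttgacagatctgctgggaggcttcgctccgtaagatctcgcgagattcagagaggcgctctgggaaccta
In *Psmd9* the motif began 31 bases before the start. In *Psme4* it lay on the opposite strand, where it reads TGACGCTGC. Along the strand shown, it ran from 7 bases before the start across the start itself. These are matches of letters in mouse DNA, and no binding was measured in this experiment. Besides *Psmd5*, the genes *Psmg1*, *Psmg3*, *Psmg4*, *Pomp*, *Psmd10* and *Psme3* had a window without a match. Of these, *Pomp* and *Psme3* were lower in Nrf2 than in Nrf1 in the comparison given below, as *Psmd9* and *Psme4* were. Whether the motif goes with the values was not tested.

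Read counts of the single libraries were recovered from the group means, since each mean is a sum of whole reads times a step for each library and each group appears in 2 tables. The libraries held between 7874111 and 11904185 counted reads. Counts below were normalised to a common scale over the 9 libraries, and within a group the libraries are called a, b and c from the deepest to the shallowest, because they could not be tied to the numbers in the labels. As a check of the labels, *Nfe2l2*, the gene of Nrf2, had 67554 to 78772 normalised reads in the Nrf2 libraries against 3399 to 3493 in the LacZ libraries and 2815 to 2894 in the Nrf1 libraries. The gene of Nrf1 was not analysed here. All 8 cardiomyocyte markers examined were present in every group, and their summed level was 125490 to 142480 in LacZ, 104780 to 105660 in Nrf1 and 136600 to 139830 in Nrf2. They went both ways, with 5 lower and 1 higher in Nrf1 and 2 lower and 5 higher in Nrf2 by limma at an adjusted p under 0.05. Markers of other cells moved with the groups. The 8 fibroblast markers summed to 121870 to 127720 in LacZ, 30962 to 33381 in Nrf1 and 63401 to 68619 in Nrf2, with 8 lower in Nrf1 and 7 lower in Nrf2 by the same test. The 7 leukocyte markers summed to 1504 to 2180 in LacZ, 908 to 931 in Nrf1 and 846 to 942 in Nrf2. By the same test 5 of 7 were lower and 1 was higher in Nrf1, and 5 of 7 were lower and 0 higher in Nrf2. Of all 14440 genes, 27.6% were lower in Nrf1 and 21.4% in Nrf2 by that test, and 28.3% and 24.4% were higher. None of the markers of any list was at 0. The sums over 6 endothelial markers were 1132 to 1203, 887 to 994 and 899 to 1061 in LacZ, Nrf1 and Nrf2, and over 4 smooth muscle and pericyte markers they were 5653 to 6066, 3661 to 3854 and 4553 to 4878. By limma 4 of the 6 endothelial markers were lower and 1 was higher, in Nrf1 and likewise in Nrf2. Of the smooth muscle and pericyte markers 4 were lower in Nrf1 and 2 in Nrf2, with 0 higher in either. In these bulk samples fewer cells of a type and less RNA per cell cannot be told apart, and the part of the cell mixture in the values below was not tested.

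The first comparison asked how Nrf1 overexpression changed these genes relative to LacZ. *Psmd9*, *Psme4*, *Pomp* and *Psmd5* rose by more than 1.5-fold, *Psmg2*, *Psme3* and *Psmg1* rose by less, and *Psmd10* and *Psmg4* did not pass the test. The ratio of the group means was thus past 1.5-fold in 4 of the 9 genes, where 11.2% of all genes with an average mean of at least 100 were past it in the same direction. *Psmg4* and *Psmd10* had average means under 100 in all 3 tables, so 7 of the 9 genes lie in the range from which such shares were taken. By limma, a linear model with a shared estimate of spread, 7 of the 9 were higher at an adjusted p under 0.05. Of all 14440 genes, 28.3% were. This share and the limma shares below have no filter on the means. They include genes with few reads and are not matched to the level of the 9 genes. The median log2 ratio of the 9 genes was 0.55, and that of all genes with a mean of at least 100 was 0.06.

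The second comparison asked the same of Nrf2. *Psmd5* alone passed 1.5-fold, where 7.16% of all genes with an average mean of at least 100 did so upwards. *Pomp*, *Psmd9*, *Psme4*, *Psmg2* and *Psme3* rose by less, so that 6 of the 9 were higher by limma, where 24.4% of all genes were. The median log2 ratio of the 9 genes was 0.39, against 0.02 for all genes with an average mean of at least 100. Both comparisons use the same LacZ libraries and are not independent, and the groups were therefore also compared directly. There, none of the 9 genes passed 1.5-fold downwards in Nrf2, where 4.05% of all genes with an average mean of at least 100 did, and *Psmd9*, *Psme4*, *Pomp* and *Psme3* were lower in Nrf2 than in Nrf1 by limma, 4 of the 9 where 21.2% of all genes were. With 3 libraries against 3, an exact permutation test cannot give a p below 0.1 for a single gene, so the calls rest on the spread that limma estimates over all genes.

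**Figure D1:**
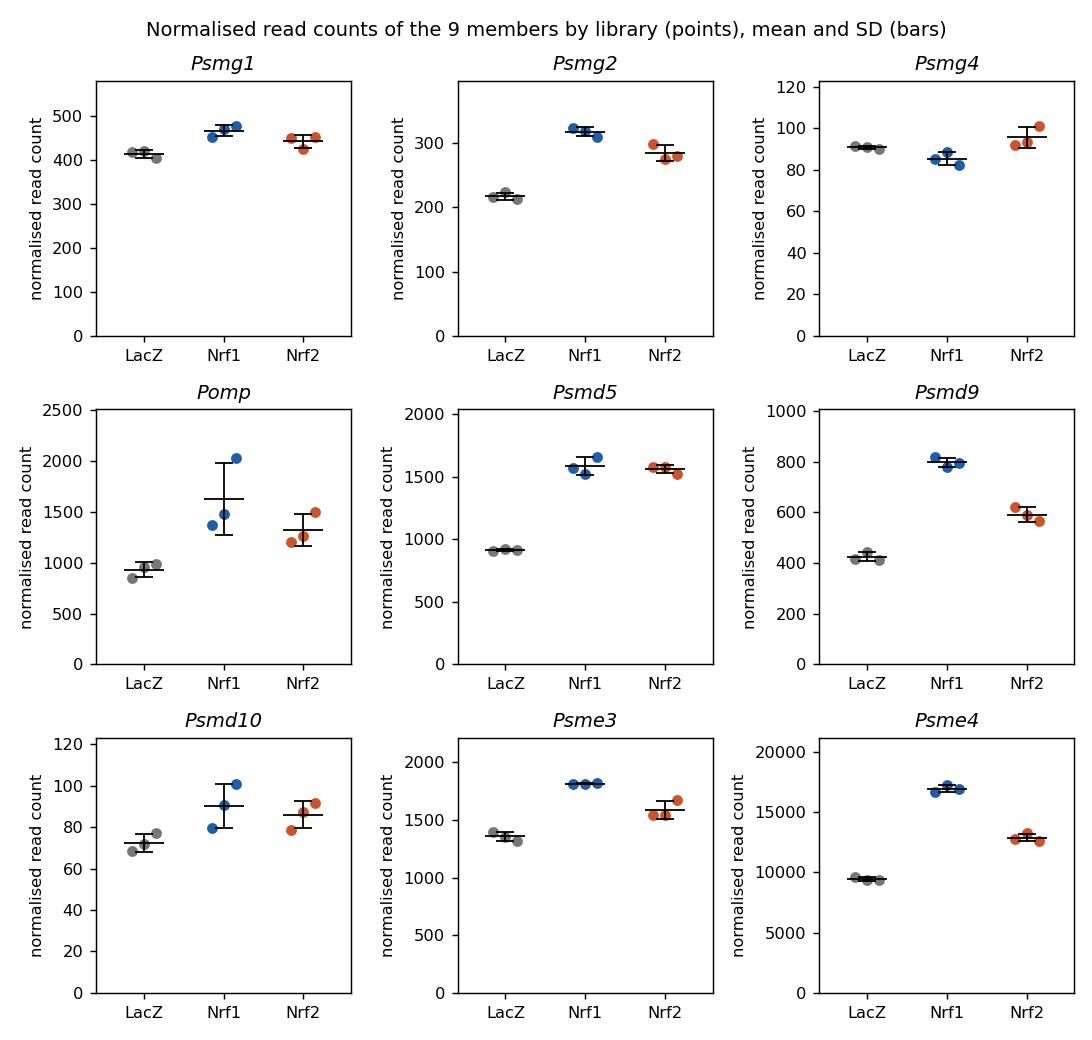
Normalised read counts (vertical axes, starting at 0) of the 9 genes in the LacZ, Nrf1 and Nrf2 groups, with 1 point per library and bars for the mean and SD of 3 libraries. *Psmd5* sits at the same height in Nrf1 and Nrf2, and the points of *Pomp* are spread the most. *Psmd9*, *Psme4*, *Psme3* and *Psmg2* form 3 steps without overlap. The 3 groups of *Psmg1* and of *Psmg4* also do not overlap, by narrow margins. The share of all genes that separate in this way was not computed. *Psmg4* separates although its limma adjusted p-values against LacZ were 0.575 in Nrf1 and 0.666 in Nrf2.

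Among the chaperones of the alpha ring, *Psmg2* rose and its partner *Psmg1* moved little. *Psmg2* had 216, 223 and 212 normalised reads in the LacZ libraries, 324, 319 and 309.9 in the Nrf1 libraries and 298, 275 and 279.7 in the Nrf2 libraries. All Nrf1 libraries stood above all Nrf2 libraries, and these above all LacZ libraries. The ratio of the authors' means was 1.46 for Nrf1 over LacZ and 1.31 for Nrf2 over LacZ, just under the 1.5-fold limit in Nrf1. The limma log2 difference was 0.55 ± 0.07 (SE) for Nrf1 with an adjusted p of 9.81e-07, and 0.39 ± 0.07 for Nrf2 with an adjusted p of 1.06e-04. Between Nrf2 and Nrf1 the limma difference of *Psmg2* was -0.16 ± 0.07, with an adjusted p of 0.0685 that fell to 0.0306 when limma was fitted without a trend of spread on level.

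*Psmg1* had 418, 421 and 404 normalised reads in LacZ, 454, 472 and 477 in Nrf1 and 452, 425 and 452 in Nrf2. The Nrf1 libraries lay above the LacZ libraries by a small margin, and the lowest Nrf2 library lay next to the highest LacZ library. The limma log2 difference from LacZ was 0.17 ± 0.06 in Nrf1 with an adjusted p of 0.0121, and 0.10 ± 0.06 in Nrf2 with an adjusted p of 0.178. The 95% interval for Nrf1, 0.06 to 0.29, lay below that of its partner *Psmg2*, 0.40 to 0.69. Its log2 ratio of means in Nrf1, 0.17, was 0.11 after re-centring on the median gene or on equal summed means.

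*Psmg4*, which encodes a subunit of the PAC3 and PAC4 dimer, had 91.5, 90.9 and 90.1 normalised reads in LacZ, 85.2, 88.8 and 82.3 in Nrf1 and 92.0, 93.6 and 101 in Nrf2. These values are close to each other and rest on 72 to 111 reads a library. Its limma differences from LacZ were -0.09 ± 0.12 in Nrf1 with an adjusted p of 0.575 and 0.07 ± 0.12 in Nrf2 with an adjusted p of 0.666. The interval for Nrf1, -0.34 to 0.16, leaves out a rise of the size seen in *Psmg2*, and that for Nrf2 ran from -0.18 to 0.32. Between Nrf2 and Nrf1 its limma difference was 0.16 ± 0.12, with an adjusted p of 0.307 that became 0.0412 without the trend.

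*Pomp* was higher in both overexpression groups but was the least repeatable of the 9 genes. It had 852, 956 and 992 normalised reads in the LacZ libraries, 1377, 1479 and 2032 in the Nrf1 libraries and 1209, 1263 and 1499.6 in the Nrf2 libraries. The LacZ libraries lay below all others, whereas the Nrf1 and Nrf2 libraries overlapped, and 1 Nrf1 library stood far above the rest. The ratio of the authors' means was 1.74 for Nrf1 over LacZ and 1.42 for Nrf2 over LacZ. The limma log2 difference was 0.78 ± 0.10 for Nrf1 with an adjusted p of 1.12e-06 and 0.50 ± 0.10 for Nrf2 with an adjusted p of 3.44e-04. These SEs draw on the spread of other genes, and *Pomp* itself had a residual SD of 0.2076. Fitted by limma without the trend, the adjusted p-values were weaker, 0.00461 for Nrf1 and 0.0396 for Nrf2. Without the Nrf1 library c the difference for Nrf1 became 0.61, with an adjusted p of 1.73e-06 in the fit with the trend.

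The direct difference of *Pomp* between Nrf2 and Nrf1 was less firm. It was -0.28 ± 0.10 with an adjusted p of 0.0267. Without the Nrf1 library c it was -0.11 with an adjusted p of 0.261, without the Nrf2 library a it was -0.22 with 0.138, without the Nrf2 library b it was -0.25 with 0.0940, and without the trend the adjusted p was 0.201. The residual SD of *Pomp* between libraries was 0.21 on the log2 scale, a spread that 2.06% of the 8391 genes with a mean of at least 100 exceeded and against a median of 0.07 over those genes. *Pomp* and *Psmd10* were highest in the shallowest library of each group, as were 3.13% of those genes. The reads of *Pomp* before normalisation were 848, 852 and 837 in the LacZ libraries, while the depth of these libraries ran from 9347019 to 7874111 reads.

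The chaperones of the ATPase base did not all move alike. *Psmd5* (S5b), which holds the ATPases *Psmc1* and *Psmc2*, rose equally far with either factor. It had 906, 918 and 917 normalised reads in LacZ, 1573, 1519 and 1659 in Nrf1 and 1573, 1579 and 1521 in Nrf2. The overexpression groups overlapped each other and stood far above LacZ. The ratio of the authors' means was 1.73 for Nrf1 over LacZ and 1.71 for Nrf2 over LacZ. The limma log2 differences from LacZ were 0.79 ± 0.04 in Nrf1, with an adjusted p of 1.14e-12, and 0.77 ± 0.04 in Nrf2, with an adjusted p of 3.71e-12. Between Nrf2 and Nrf1 the limma difference was -0.02 ± 0.04 with an adjusted p of 0.699 and a 95% interval of -0.11 to 0.06.

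*Psmd9* (p27), which holds *Psmc3* and *Psmc6*, had the highest ratio of the 9 genes in Nrf1. It had 417, 445 and 411 normalised reads in LacZ, 817, 780.3 and 795 in Nrf1 and 621, 589 and 564 in Nrf2. The groups did not overlap, and Nrf2 lay between LacZ and Nrf1. Its ratio of authors' means was 1.88 for Nrf1 over LacZ and 1.39 for Nrf2 over LacZ. The limma log2 difference from LacZ was 0.91 ± 0.05 in Nrf1 with an adjusted p of 8.67e-12, and 0.48 ± 0.05 in Nrf2 with an adjusted p of 2.80e-07. The difference between Nrf2 and Nrf1, -0.43 ± 0.05, had an adjusted p of 1.27e-06 (limma).

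*Psmd10* (gankyrin), which holds *Psmc4* and *Psmc5* and is also known as an oncoprotein that binds Mdm2, was measured on only 64 to 100 reads a library. It had 68.3, 71.8 and 77.0 normalised reads in LacZ, 79.5, 90.7 and 101 in Nrf1 and 78.7, 87.5 and 91.6 in Nrf2. Each LacZ library lay below the libraries of both other groups, which overlapped each other, as for *Psmd5*. Between Nrf2 and Nrf1 the limma difference was -0.07 ± 0.14 with an adjusted p of 0.731. The limma difference from LacZ was 0.31 ± 0.14 in Nrf1 with an adjusted p of 0.0608, and 0.24 ± 0.14 in Nrf2 with an adjusted p of 0.160. The value for Nrf1 passed the threshold when the Nrf1 library a was left out, at 0.40 with an adjusted p of 0.0327, without the trend, at an adjusted p of 0.0338, and when genes with an average normalised count under 10 were left out, at 0.0418.

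The base chaperones were also set beside the ATPases they hold, with no test of the difference. In Nrf1 over LacZ the log2 ratios of means were 1.10 for *Psmc1* and 0.90 for *Psmc2*, beside 0.79 for *Psmd5*. In Nrf2 over LacZ they were 0.44 and 0.27, beside 0.77 for *Psmd5*. The chaperone thus had the smallest ratio of the trio in Nrf1 and the greatest in Nrf2. For *Psmd9* and its clients *Psmc3* and *Psmc6* the log2 ratios were 0.91, 0.83 and 1.13 in Nrf1 and 0.48, 0.21 and 0.45 in Nrf2. *Psmd10* had 0.32 where its clients *Psmc4* and *Psmc5* had 1.37 and 1.38 in Nrf1, and 0.25 where they had 0.17 and 0.40 in Nrf2.

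Both alternative activators rose with both factors, and more with Nrf1. *Psme4*, the large monomeric cap PA200, is known in germ cells and in the response to DNA breaks. It had 9656, 9372 and 9341 normalised reads in LacZ, 16682, 17240 and 16912 in Nrf1 and 12791, 13242 and 12632 in Nrf2. The groups formed 3 steps without overlap, with gaps far wider than the spread inside each. The authors' means had a ratio of 1.79 for Nrf1 over LacZ and 1.36 for Nrf2 over LacZ. The limma log2 difference from LacZ was 0.84 ± 0.03 in Nrf1 with an adjusted p of 2.56e-15, and 0.45 ± 0.03 in Nrf2 with an adjusted p of 1.24e-10. Nrf2 was lower than Nrf1 by limma, at -0.39 ± 0.03 with an adjusted p of 1.03e-09.

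*Psme3*, whose heptamer caps the core in the nucleus, moved in the same order by smaller amounts. It had 1396, 1353 and 1319 normalised reads in LacZ, 1810.4, 1815 and 1816 in Nrf1 and 1540.2, 1543 and 1672 in Nrf2. The Nrf1 libraries were nearly equal, and no group overlapped another. Its ratio of means was 1.34 for Nrf1 over LacZ and 1.17 for Nrf2 over LacZ, both short of 1.5-fold, and the log2 ratio of 0.23 for Nrf2 was 0.15 with equal summed means. The limma differences were 0.42 ± 0.04 in Nrf1 with an adjusted p of 1.97e-08, 0.22 ± 0.04 in Nrf2 with an adjusted p of 1.11e-04, and -0.20 ± 0.04 between Nrf2 and Nrf1 with an adjusted p of 4.91e-04.

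**Figure D2:**
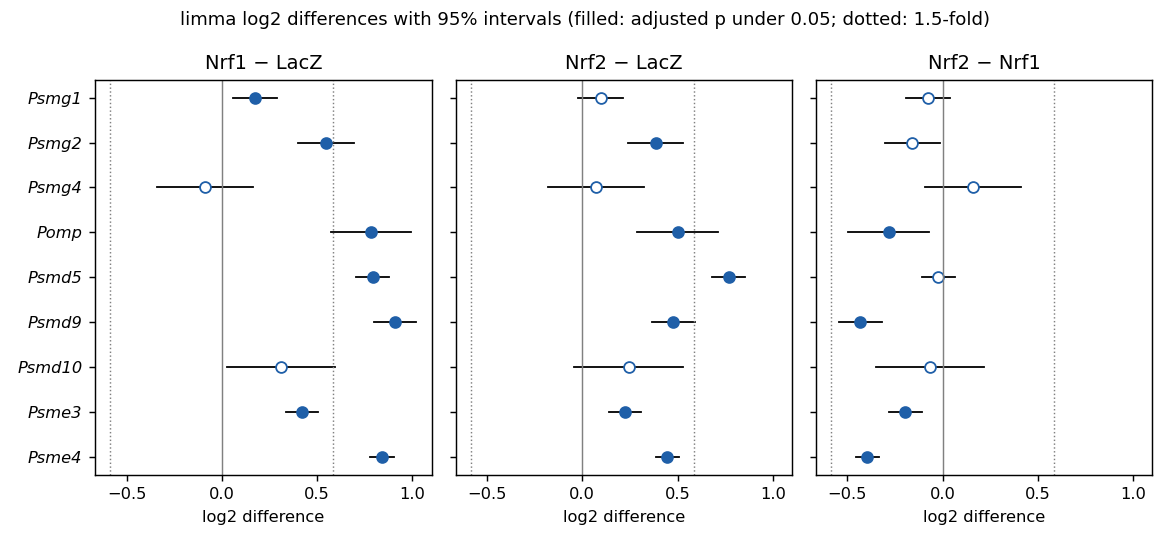
Log2 differences from limma (horizontal axes) for Nrf1 minus LacZ, Nrf2 minus LacZ and Nrf2 minus Nrf1, with 95% intervals as lines. Filled points have an adjusted p under 0.05 and dotted lines mark 1.5-fold. The point of *Psmd5* lies at 0.79 and 0.77 in the first panels and at -0.02 in the last, where *Psmd9* and *Psme4* lie at -0.43 and -0.39.

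The chaperones and activators were then set beside the particle they build or cap. Of 33 subunits of the rings, base and lid, 32 passed 1.5-fold in Nrf1 over LacZ, and their median log2 ratio was 1.10, where the 9 chaperones and activators had 0.55. The medians by part were 1.09 for the alpha ring, 1.12 for the beta ring, 1.11 for the base and 1.02 for the lid. In Nrf2 over LacZ 7 of the 33 subunits passed, with a median of 0.31, where the 9 genes had 0.39. In Nrf2 over Nrf1 24 of the 33 subunits were past 1.5-fold downwards, with a median of -0.75, where none of the 9 was and their median was -0.16. Of all genes with an average mean of at least 100, 11.2% passed upwards in Nrf1 over LacZ and 7.16% in Nrf2 over LacZ. In Nrf2 over Nrf1 4.05% of those genes passed downwards. The counts of subunits, chaperones and activators describe the lists, which were chosen with results of these data known, and carry no test.

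**Figure D3:**
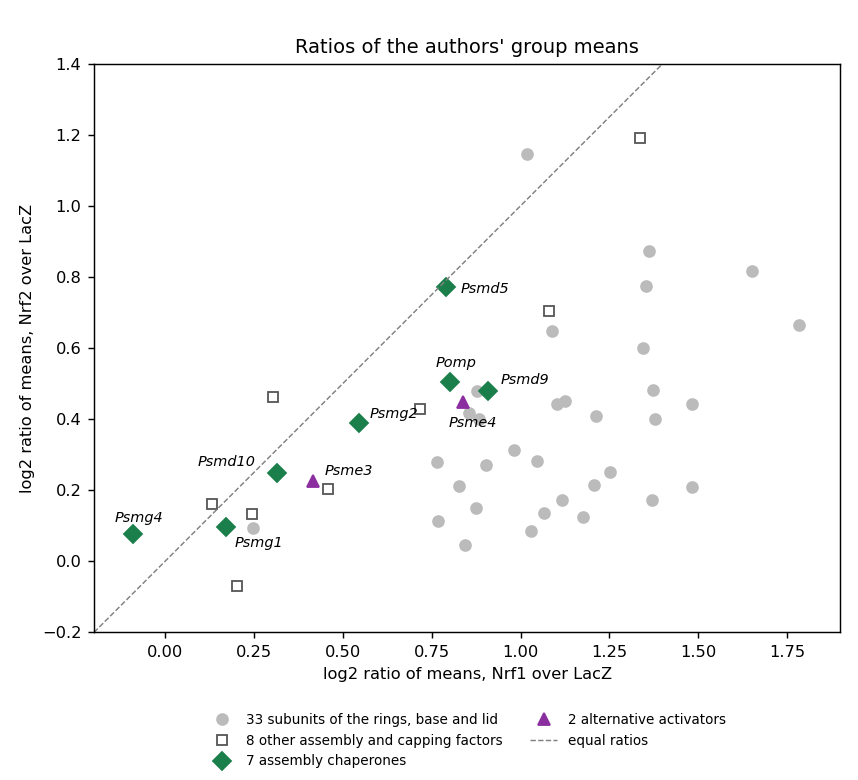
Log2 ratios of the authors' means, Nrf1 over LacZ (horizontal) against Nrf2 over LacZ (vertical), for the chaperones (diamonds), the activators (triangles), 33 subunits (grey circles) and 8 other factors (open squares). Both axes share the LacZ samples. *Psmd5* lies at the line of equal ratios, and 32 of the 33 subunits lie past 1.5-fold on the horizontal axis. Of all genes with an average mean of at least 100, 11.2% were past it upwards.

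The subunit nearest to each gene was found by the distance in the log2 ratios of both groups over LacZ. *Psmd9* lay 0.03 from *Psmd7*, a lid subunit with log2 ratios of 0.88 in Nrf1 and 0.48 in Nrf2, and *Pomp* lay 0.08 from the same subunit. *Psme4* lay 0.03 from *Psmb5*, the chymotrypsin-like subunit of the beta ring, with 0.85 and 0.42. *Psmg1*, *Psmg4*, *Psmd10* and *Psme3* were all nearest to *Shfm1*, the small lid subunit also called Sem1, with 0.25 and 0.09, which is the only subunit of the 33 that did not pass 1.5-fold in Nrf1. At 0.34 and 0.31, *Psmg4* and *Psmd5* lay farthest from any subunit, *Psmd5* being nearest to *Psmd7*, and *Psmg2* lay 0.25 from *Psmb1*.

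Other factors that assemble, cap or dock on the proteasome were listed for comparison, 11 in all, of which 8 were measured and *Paaf1*, *Ecpas* and *Ube3c* were not analysed here. All 8 were higher in Nrf1 than in LacZ by limma and 6 of 8 were higher in Nrf2, with median log2 ratios of 0.38 and 0.32. Of all genes, 28.3% and 24.4% were higher by limma in Nrf1 and in Nrf2. *Zfand2a*, an arsenite-inducible zinc finger protein that binds the proteasome, had the highest ratios, with limma differences of 1.34 ± 0.04 in Nrf1 (adjusted p of 6.80e-16) and 1.19 ± 0.04 in Nrf2 (adjusted p of 7.89e-15). *Usp14*, the deubiquitinase bound to the base, rose by 1.08 ± 0.03 and 0.70 ± 0.03 (limma, adjusted p of 1.60e-16 and 2.58e-13). *Psmf1*, which encodes the inhibitor PI31, rose by 0.72 ± 0.05 and 0.43 ± 0.05 (limma, adjusted p of 3.17e-10 and 1.10e-06). *Txnl1*, a thioredoxin-like protein of the regulatory particle, and *Zfand5* rose in both groups, by 0.46 and 0.20 and by 0.31 and 0.46. *Akirin2*, which brings proteasomes into the nucleus, rose by 0.13 in Nrf1 and 0.16 in Nrf2. *Uchl5*, the other deubiquitinase of the base, rose by 0.25 in Nrf1 and had 0.13 in Nrf2, short of the threshold, and its direct difference of -0.11 had an adjusted p of 0.111. *Ublcp1*, a phosphatase of nuclear proteasomes, was 0.20 higher in Nrf1 and -0.07 in Nrf2, with a direct difference of -0.27 and an adjusted p of 0.00551 (limma).

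Of 5 interferon-inducible proteasome genes, 4 were lower in Nrf1 and 3 in Nrf2 by limma, and none was higher in either. Of all genes, 27.6% were lower in Nrf1 and 21.4% in Nrf2 by limma. *Psme1* and *Psme2* encode the cytoplasmic cap PA28 alpha and beta, a relative of the *Psme3* product, and *Psmb8*, *Psmb9* and *Psmb10* encode the catalytic subunits of the immunoproteasome. *Psme1* had a mean of 1277 ± 67.3 (SD, n = 3) normalised reads in LacZ, 1015 ± 38.4 in Nrf1 and 1319 ± 27.2 in Nrf2, and fell in Nrf1, with a limma difference of -0.33 ± 0.05 and an adjusted p of 2.69e-06. In Nrf2 its difference was 0.05 ± 0.05 with an adjusted p of 0.422. *Psme2* had limma differences of -0.49 ± 0.22 and -0.54 ± 0.22, with adjusted p-values of 0.0674 and 0.0527, and its libraries spread widely, from 60.6 to 135 in Nrf1. *Psmb8* had a mean of 139 ± 16.8 normalised reads in LacZ, 23.6 ± 8.47 in Nrf1 and 45.6 ± 6.30 in Nrf2 (SD, n = 3), and *Psmb9* and *Psmb10* were also lower in both groups by limma. Among the activators the nuclear caps *Psme3* and *Psme4* were thus higher in Nrf1 while *Psme1* was lower. Between Nrf2 and Nrf1, *Psmb8*, *Psmb9* and *Psme1* were higher in Nrf2, by 0.97, 0.70 and 0.38 (limma, adjusted p of 8.02e-04, 3.21e-05 and 8.20e-07). *Psme2* and *Psmb10* had limma differences of -0.05 and -0.07 there, with adjusted p-values of 0.882 and 0.680. The leukocyte markers, whose cells carry these interferon-inducible genes at high levels, summed lower in both Nrf1 and Nrf2 than in LacZ. By limma 1 of the 7 was higher in Nrf1. The part of these cells was not tested.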

How the data were processed

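RNA from 9 libraries of NRVMs, 3 each for LacZ, Nrf1 and Nrf2, was sequenced by the authors as 75-bp single-end reads. According to the study's methods and the submitters' processing notes, reads were checked with FastQC 0.11.4, aligned to the rat Rnor_6.0 genome with HISAT2 2.0.4, freed of duplicates with SAMtools 0.1.18, counted with featureCounts 1.6.0 and compared with edgeR 3.20.5. The recovered counts still reached 91047 reads in a library for *Col1a1*, whose longest mouse transcript has 5930 bases, more reads than it has start positions. The authors deposited 3 tables, one per pair of groups, in which the signal is the mean over a group of read counts divided by size factors set for that pair. The columns have the layout of the R package DESeq, so which tool made them is not known here. The deposited fold changes and p-values of the authors' comparisons were not used, and 0 columns of single samples were left unused.

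The ratio of the authors' means was taken within each table and called past 1.5-fold. Each group mean is the sum of 3 whole counts times a step per library. Solving the means of both tables of a group for whole counts gave a single solution for at least 99.986% of genes. The tolerance was 1.5 units of the last printed digit plus an allowance for error in the fitted steps. As a control the second mean was shifted by 1 part in 10000 in 10797 to 11064 genes a group, and 0 were solved. Genes with low or very high means were not in this control, and its allowance for the steps was a different one. Counts of 14440 genes were scaled by median-of-ratios size factors over 9 libraries, and log2(normalised count + 1) was fitted with limma 3.58.1 in R 4.3.3 (all 9 libraries, 3 contrasts, empirical Bayes with trend, Benjamini-Hochberg over all genes). Fold changes on this scale understate those of low genes. The design named this fit for the case that counts could be recovered. No pair of libraries of a group agreed within counting error, with a chi-square per degree of freedom of at least 1.56 over 8391 genes. The recovery and the fit were tested on simulated data.

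Genes with a symbol that is listed more than once in a table were left out. The genes named are all members, the listed capping factors and interferon-inducible genes, the ATPases held by base chaperones and the nearest subunit. Members and lists were chosen with earlier results of these data known. Alternatives were other folds, filters, scalings and pseudocounts, a fit without the trend, leaving out each library and, chosen after seeing the data, a limma fit on genes with an average normalised count of at least 10.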

Additional observations from a re-analysis of the deposited data

How the results depend on the processing

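The counts of chaperones and activators depended on the fold that was asked for. At 2-fold, 0 of the 9 were called in either comparison with LacZ, where 3.21% and 2.53% of all genes with an average mean of at least 100 were higher in Nrf1 and Nrf2. At a limit 25% above equal means, 6 were called in Nrf1 against LacZ (25.7% of those genes), 5 in Nrf2 against LacZ (17.8%) and 2 in Nrf2 against Nrf1 (16.2%). Without a filter on low means, 15.6% of all genes were past 1.5-fold upwards in Nrf2 against LacZ and 8.72% downwards in Nrf2 against Nrf1, since genes with few reads then enter. Re-centring on the median gene or equal summed means, which moved the ratios by at most 0.08 on the log2 scale, kept these counts at 4, 1 and 0. With each library left out, the counts past 1.5-fold stayed at 4, 1 and 0, and the counts by limma ranged from 7 to 8, from 6 to 6 and from 3 to 4. For single genes in limma, 313 of the alternative values kept their direction and their side of the threshold, 4 lost a call, all for *Pomp* in Nrf2 against Nrf1, and 5 gained one. The differences between Nrf2 and Nrf1 of *Psmd5* and *Psmd10*, which passed no threshold, ranged from -0.0524 to 0.0114 and from -0.154 to 0.0138 with each library left out and were above 0 without the Nrf1 library c. No paired analysis was possible because the recovered libraries could not be tied to the replicate numbers of the labels. *Psmg4* and *Psmd10*, with at most 111 reads a library, had limma standard errors of 0.12 and 0.14 and are the genes for which depth limits the comparison most.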

Other observations

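The lid subunit *Psmd6* was the only one of the 33 subunits that was higher in Nrf2 than in Nrf1 by limma. Its log2 difference from LacZ was 1.02 ± 0.04 in Nrf1 (adjusted p of 1.67e-14) and 1.15 ± 0.04 in Nrf2 (adjusted p of 4.77e-15), and Nrf2 exceeded Nrf1 by 0.13 ± 0.04 (limma, adjusted p of 0.0141). It is named here after its values were seen.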
